A study of Ovis aries and Bos taurus with 10 samples.

Results

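The guidance molecules described here are the products of 5 genes, NRP1, NTN4, SEMA6A, DPYSL2 and PAK4, measured in sheep oocytes and granulosa cells (GC) of early follicles and in whole fetal ovaries. All probe sets to which the annotation of the chip gives only one of these symbols were taken, which gave 8 of the 24016 probe sets on the Affymetrix Bovine Genome Array, controls left out, and 5 of its 9155 gene symbols. NRP1, NTN4 and PAK4 have 1 probe set each, SEMA6A has 2 and DPYSL2 has 3. The genes were chosen with their signals on these arrays known, so their values are a description and carry no test.

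Guidance molecules were found through the way growing axons are steered, and most of them also act outside the nervous system, on vessels, epithelia and migrating cells. A cell secretes or displays a ligand, a netrin, semaphorin, slit or ephrin. A receptor on the neighbouring cell reads it, and kinases, small GTPases and tubulin or actin binding proteins inside that cell change its shape, adhesion or path. In an early follicle the oocyte and its GC lie against each other inside a basement membrane, with stroma and vessels outside it.

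The 6 arrays of laser capture microdissection (LCM) comprise oocytes of primordial, primary and secondary follicles (PDO, PMO and SECO) and GC of the same stages (PDG, PMG and SECG), all from the ovaries of newborn lambs less than 1 day old. Each holds RNA pooled from more than 1 lamb, and the study drew on more lambs for the primary stage than for the other stages. The RNA was amplified in repeated rounds and labelled with the Arcturus turbo biotin kit (protocol 3, P3), and no array was repeated. A further 4 arrays hold whole fetal ovary: ovine RNA of 132 days post coitum labelled by P3, by repeated amplification with Affymetrix labelling (P2) and by the standard Affymetrix protocol (P1), and bovine RNA of 8 months post coitum labelled by P1. The labels give no genetic change or treatment, and all ovine arrays measure sheep RNA on bovine probes. The deposited values are MAS 5.0 signals, scaled so that the trimmed mean of every array is 100, and the median signal of an array lay between 25.2 and 40.8. A probe set counted as detected when its signal reached the limit that gives the array the share of present calls listed by the study, which lay between 45.8 and 74.2 on the LCM arrays and between 28.9 and 44.7 on the fetal ones. Probe sets bind their targets with unlike strength, so that levels are compared between arrays and never between probe sets.

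The labelled cell types were checked against their markers. Of 16 oocyte markers 9 are on the array, and their summed signal was 7759, 7940 and 2792 in oocytes of the 3 stages against 3057, 5680 and 3476 in GC, so that the secondary pair ran the other way. Of 15 GC markers 12 are on the array and AMH, KITLG, FOXL2 and FSHR were detected on no LCM array. The GC markers summed to 435, 603.9 and 758.5 in oocytes and to 538.6, 1353 and 2926 in GC. Stroma and matrix markers, 11 of 13 on the array, summed to 16800, 5288 and 17230 in oocytes and to 50370, 31080 and 14050 in GC. Markers of oocytes and of stroma were thus detected on all 6 arrays. For transcripts in bulk material, fewer cells of a type and less RNA per cell cannot be told apart.

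Of the 8 probe sets, 7 were detected on at least 1 LCM array and entered the linear model, and 3 of these were detected on all 6. SEMA6A Bt.17078.1.S1_at reached the limit on none of them. Oocytes and GC were compared with limma on log2(signal + 20) with the stage as a block, over 11642 probe sets, those that reached the limit on 1 or more LCM arrays. No probe set of the array passed an adjusted p of 0.05 (0 of 11642, or 0.0%), while 1295 (11.1%) had an unadjusted p under 0.05. For the 8 probe sets the differences are given per stage, as oocyte minus GC on the log2(signal + 20) scale, with the mean and SD over the 3 stages. They were called where the sign was the same at the 3 stages, the mean was at least 2-fold and the probe set was detected in the higher compartment. By this measure 3 of the 7 tested were called higher in GC, where 2.86% of all probe sets tested were, and none was called higher in oocytes, where 2.53% were. As the genes were chosen with these signals known, nothing is read from that count.

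**Figure D1:**
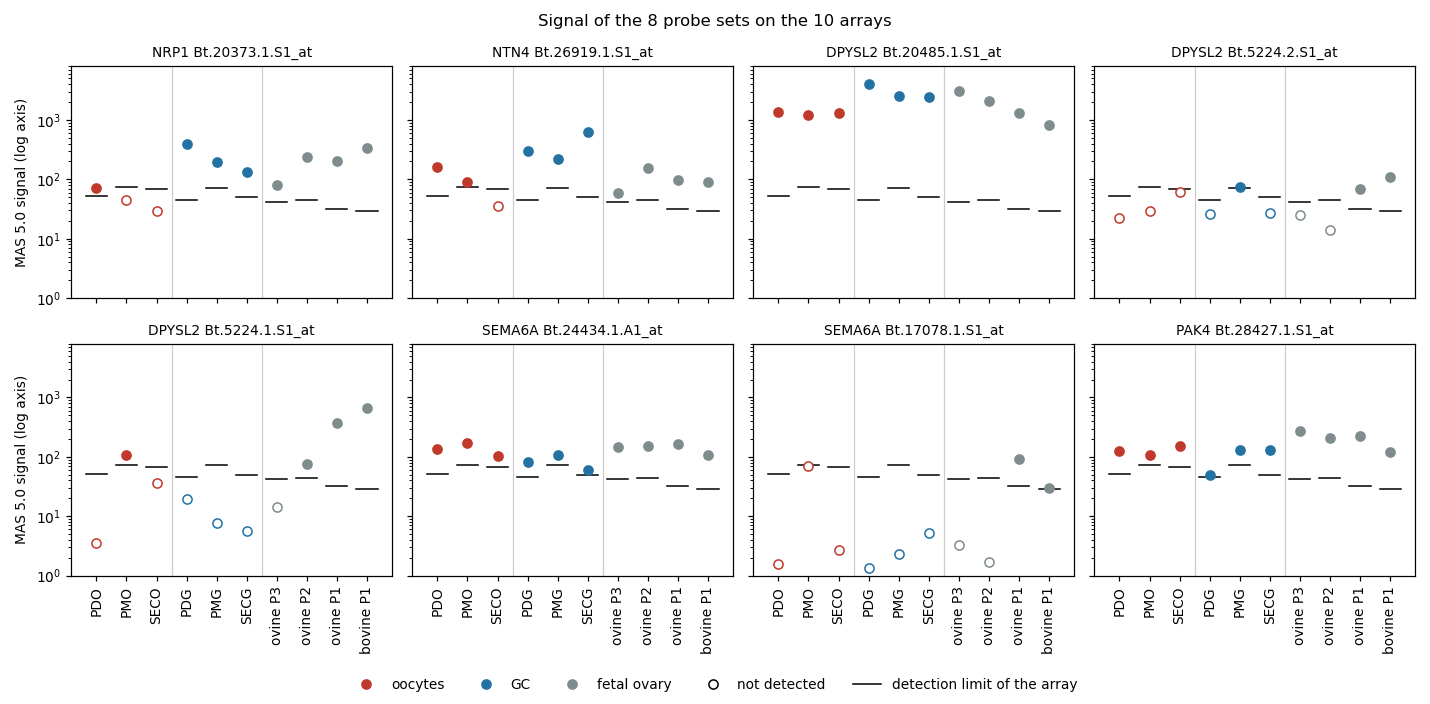
MAS 5.0 signal (log axis) of the 8 probe sets on the 10 arrays, 1 point per array, with oocytes in red, GC in blue and fetal ovary in grey. Open points are not detected and short lines mark the detection limit of each array. All GC signals of NRP1, NTN4 and DPYSL2 Bt.20485.1.S1_at lie above all their oocyte signals, as for 7.71% of all probe sets tested.

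The receptor among the 5 genes is NRP1 (neuropilin 1, Bt.20373.1.S1_at), which binds class 3 semaphorins together with plexins and also binds vascular endothelial growth factor. Its signal was 72.47 on PDO, 45.06 on PMO and 29.34 on SECO, against 400.6 on PDG, 192.7 on PMG and 130.7 on SECG. The groups did not overlap: the lowest GC signal was above the highest oocyte signal, as for 7.71% of all probe sets tested. In both compartments the primordial array was the highest and the secondary array the lowest. Among oocytes only PDO reached its detection limit.

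Oocyte minus GC, the NRP1 difference was -2.19 at the primordial stage, -1.71 at the primary and -1.61 at the secondary stage. Its mean was -1.83 ± 0.31 (SD, n = 3 stages), and 14 of the 11642 probe sets (0.12%) lay as far or farther on this side. As the oocyte signals of the later stages are under the detection limit, GC were at least 2.60-fold higher at the primary and at least 1.93-fold higher at the secondary stage when the limit is put in their place. The difference was at least 2-fold without any of the 3 stages.

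The smooth muscle and pericyte sum shared the stage order of NRP1 in both compartments, and the stromal and endothelial sums only in part. The stroma and matrix sum had the same order as NRP1 over the GC arrays, with PDG highest and SECG lowest. Over the oocyte arrays it did not, with SECO highest and PMO lowest. The smooth muscle and pericyte sum, with 9 of 10 markers on the array, was 901.5, 867.2 and 753 in oocytes against 3215, 1825 and 1749 in GC. Like NRP1 it was highest on the primordial and lowest on the secondary array of both compartments, and higher in GC at each stage. Of this sum MYH11, which did not have that order, gave 356.1, 336.4 and 352 in oocytes and 1814, 897.4 and 1186 in GC. TAGLN, DES, RGS5 and SMTN were detected on no LCM array. The endothelial sum, 13 of 14 markers, was 1283, 1162 and 1432 in oocytes and 3129, 1261 and 618 in GC, and VWF, KDR, TIE1, CLDN5, ENG and EGFL7 were detected on no LCM array. At the secondary stage the markers did not all run one way. The stromal and endothelial sums were lower in GC than in oocytes, largely through COL1A2, COL3A1 and TEK, but 4 of the 9 stromal markers detected there were higher in GC, DCN and FBN1 among them, as were 1 of 5 endothelial markers, PTPRB, and 3 of 4 smooth muscle markers. The part of these cells in the NRP1 signal was not tested.

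In the whole fetal ovary NRP1 had 80.9 with ovine P3, 242.6 with ovine P2 and 206.7 with ovine P1 RNA, and 339.4 with bovine P1 RNA. All 4 signals were detected. The P3 signal is the lowest of the 4, and it is also the one labelled like the LCM arrays. All GC arrays lay above it, by 2.06 on PDG, 1.08 on PMG and 0.58 on SECG, and all oocyte arrays below it, by a difference of -0.13 on PDO, -0.63 on PMO and -1.03 on SECO. These are differences of single arrays, and LCM and whole tissue also differ in the age of the animals.

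NRP1 signals semaphorins through plexins, and the array covers these thinly. Of the 9 plexin genes listed 5 are on the array, with 9 probe sets, of which 4 were detected on any LCM array and none on all 6. Those detected belong to PLXNA2 and PLXNB2. PLXNA2 Bt.22788.2.A1_at had 59.7, 61.64 and 47.38 in oocytes against 21.95, 58.05 and 36.98 in GC, and only PDO reached its limit. Of the other PLXNA2 probe sets, Bt.4968.1.S1_at had a difference of -0.09 and was detected on PDO and SECG. Bt.22788.1.S1_at had a difference of 0.10, with an SD of 1.24 over the stages, and was detected on PDO alone. NRP2, the second neuropilin, has 2 probe sets, and neither was detected on an LCM array, whereas both were with ovine and bovine P1 RNA.

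NTN4 (netrin 4, Bt.26919.1.S1_at) is a secreted netrin that binds laminins of basement membranes. Its signal was 161.2 on PDO, 90.59 on PMO and 36.1 on SECO, against 296.1 on PDG, 223.3 on PMG and 621.7 on SECG. All 3 GC signals were above all 3 oocyte signals, as for 7.71% of all probe sets tested. The highest of all 10 arrays was SECG and the lowest was SECO. SECO alone did not reach its limit.

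The NTN4 difference was -0.80 at the primordial, -1.14 at the primary and -3.52 at the secondary stage, with a mean of -1.82 ± 1.48 (SD, n = 3 stages). Of all probe sets tested, 15 (0.129%) lay as far on this side. The secondary pair decides the size of this mean: without it the mean is -0.97, under 2-fold, and NTN4 is no longer called. At the secondary stage GC were at least 9.20-fold higher, with SECO at its detection limit. The sign was negative at all 3 stages, as for 17.1% of all probe sets tested.

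Over the stages NTN4 went opposite ways in the compartments. Secondary minus primordial, it differed by -1.69 in oocytes and by 1.02 in GC. With 50 added in place of 20 the difference in GC was 0.96, under 2-fold. Among the 8354 probe sets that could be called in both, 43 (0.515%) were at least 2-fold lower in oocytes and at least 2-fold higher in GC over this step, and 69 (0.826%) did the reverse. Most of the difference in GC lay between the primary and the secondary stage, at 1.40, after -0.38 between the primordial and the primary. In oocytes the steps were -0.71 and -0.98. With 1 array per stage and compartment none of these differences has a replicate. The GC marker sum was also highest on SECG, at 2926, and its part in the NTN4 signal was not tested.

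In the fetal ovary the NTN4 signal was 58.7 with ovine P3, 153.5 with P2 and 97.5 with P1 RNA, and 89.0 with bovine P1 RNA. Of the 6 LCM arrays 5 lay above the ovine P3 signal, all but SECO, with SECG farthest at 3.03. The ovine and bovine P1 signals differed by 0.11.

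SEMA6A (semaphorin 6A) is a semaphorin held in the membrane, known in the mouse to act through plexins A2 and A4. Its probe set Bt.24434.1.A1_at had 133.8 on PDO, 169.1 on PMO and 102.7 on SECO, against 81.99 on PDG, 105.6 on PMG and 60.49 on SECG. All 6 signals were detected. The groups overlapped, since PMG was slightly above SECO, but within each stage the oocyte array was the higher. All 3 oocyte signals above all 3 GC signals were found for 7.28% of the probe sets tested, and for none of the 5 genes.

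The SEMA6A difference was 0.59 at the primordial, 0.59 at the primary and 0.61 at the secondary stage, a mean of 0.60 ± 0.01 (SD, n = 3 stages). The same sign at 3 stages, higher in oocytes, was met by 17.7% of all probe sets tested, and 1425 (12.2%) lay as far or farther on this side. The difference is under 2-fold and was not called. The 3 stages gave nearly the same value, since oocyte and GC signals followed the same course, with the primary stage highest and the secondary stage lowest.

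The other SEMA6A probe set, Bt.17078.1.S1_at, had signals between 1.36 and 69.55 on the LCM arrays, all under the limit. Its highest was on PMO, where the limit is 74.2. With ovine P1 RNA it reached 92.4 and with bovine P1 RNA 29.9, both detected, the bovine one just above its limit of 28.9. With P3 and P2 it had 3.3 and 1.7. The 2 probe sets of SEMA6A therefore gave unlike answers on amplified RNA, and the 10 array profiles correlated at r = 0.50, a value over arrays that share labelling and stage.

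In the fetal ovary SEMA6A Bt.24434.1.A1_at had 144.5 with ovine P3, 151.3 with P2 and 166.6 with P1 RNA, and 105.5 with bovine P1 RNA. The labelling protocols differed little here, by -0.18 for P3 and by -0.12 for P2 against P1. Among the LCM arrays only PMO was above the ovine P3 signal. Of the receptors known for SEMA6A, PLXNA4 has 2 probe sets, and both were undetected on all 10 arrays.

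**Figure D2:**
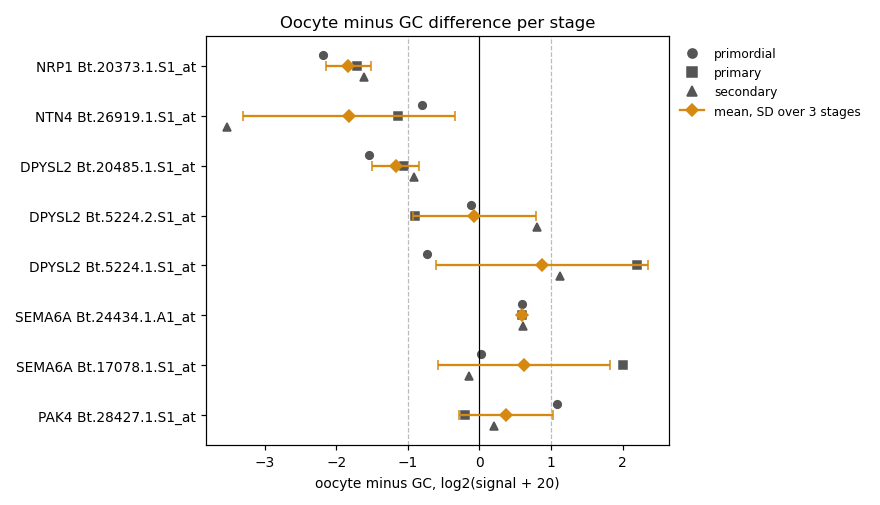
Oocyte minus GC difference on the log2(signal + 20) scale for the 8 probe sets, with grey marks for the primordial, primary and secondary stage and diamonds with bars for the mean and SD over 3 stages. Dashed lines mark 2-fold. NRP1 and DPYSL2 Bt.20485.1.S1_at are under 0 at every stage with an SD of 0.31 and 0.33, NTN4 is pulled out by its secondary stage, and SEMA6A Bt.17078.1.S1_at was not detected on any of these arrays.

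DPYSL2, also called CRMP2, is a cytosolic protein that binds tubulin and passes on the semaphorin 3A signal in neurons, where the kinases CDK5 and GSK3B phosphorylate it. Its probe set Bt.20485.1.S1_at had 1354 on PDO, 1207 on PMO and 1302 on SECO, against 3965 on PDG, 2519 on PMG and 2466 on SECG. It was detected on all 10 arrays. The oocyte signals lay close together, and every GC signal was above them, PDG by most. The same holds for 7.71% of all probe sets tested, whose GC signals all lay above all oocyte signals.

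The difference of this probe set was -1.54 at the primordial, -1.05 at the primary and -0.91 at the secondary stage, with a mean of -1.17 ± 0.33 (SD, n = 3 stages). As far or farther on this side lay 207 of the 11642 probe sets (1.78%). Without the primordial stage the mean is -0.98, under 2-fold, and this probe set is no longer called. PDG, where it was highest, also had the highest stromal, smooth muscle and endothelial sums of the LCM arrays. For neuronal and glial markers, 8 of 11 on the array, the sum was 3117 on PDO, 2823 on PMO and 2403 on SECO. It was lower on the GC array of each stage, at 1753 on PDG, 1916 on PMG and 1789 on SECG. UCHL1 gave most of each sum, with 2664, 2612 and 1844 on the oocyte arrays against 1368, 1519 and 1350 on the GC arrays. The median difference of the 8 markers was -0.12, so that as a set they gave no clear direction. ELAVL4, GFAP and NEFM were detected on no LCM array. The part of stromal, muscle and endothelial cells in the DPYSL2 signal was not tested.

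The other DPYSL2 probe sets, which share the stem Bt.5224 in their names, were near or under the limits. Bt.5224.2.S1_at had 22.09, 29.73 and 61.87 on the oocyte arrays against 25.69, 73.11 and 26.84 on the GC arrays, and only PMG was detected. Its difference changed sign between stages, at -0.12, -0.90 and 0.81. Bt.5224.1.S1_at had 3.6, 107.7 and 36.34 on the oocyte arrays against 19.14, 7.787 and 5.665 on the GC arrays, and only PMO was detected. At the primary stage oocytes were at least 1.49-fold higher by this probe set, with PMG at its limit. The mean differences were -0.07 ± 0.86 for Bt.5224.2.S1_at and 0.87 ± 1.48 for Bt.5224.1.S1_at (SD, n = 3 stages each), so that both SDs are larger than the means. Without the primordial stage Bt.5224.1.S1_at had a mean of 1.67 and would be called higher in oocytes, on detection by PMO alone.

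The probe sets of DPYSL2 thus gave no common direction. Over the 10 arrays Bt.20485.1.S1_at correlated at r = -0.52 with Bt.5224.2.S1_at and at r = -0.68 with Bt.5224.1.S1_at, while both weak ones correlated with each other at r = 0.57. These are descriptions over arrays that share labelling and stage. The statement that DPYSL2 was higher in GC rests on the brightest probe set alone.

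The labelling separated the DPYSL2 probe sets in the fetal ovary as well. Bt.20485.1.S1_at had 3041 with ovine P3, 2072 with P2 and 1318 with P1 RNA, and 828 with bovine P1 RNA, so that the amplified RNA gave the higher signals. Bt.5224.1.S1_at had 14.5 with ovine P3, 77.1 with P2 and 372.1 with P1 RNA, and 672.8 with bovine P1 RNA, in the opposite order. Bt.5224.2.S1_at had 25.2 with P3 and 14.2 with P2, both undetected, 67.8 with P1 and 109.8 with bovine P1 RNA. P3 minus P1, the difference was 1.19 for Bt.20485.1.S1_at, -3.51 for Bt.5224.1.S1_at and -0.96 for Bt.5224.2.S1_at. All 3 probe sets were detected with P1 RNA of either species, and with P3 only the brightest was.

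PAK4 is a serine and threonine kinase bound by the small GTPase CDC42, which acts on the actin cytoskeleton through LIM kinase and cofilin. Its probe set Bt.28427.1.S1_at had 128 on PDO, 109.2 on PMO and 153.5 on SECO, against 49.48 on PDG, 128.6 on PMG and 129.8 on SECG. All 6 signals were detected, PDG only just, above its limit of 45.8. The groups overlapped, and PDG alone stood below the rest.

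The PAK4 difference was 1.09 at the primordial, -0.20 at the primary and 0.21 at the secondary stage, with a mean of 0.37 ± 0.66 (SD, n = 3 stages). As far or farther toward oocytes lay 2742 probe sets (23.6%). The primordial pair gives the largest part of this mean. Between stages GC differed by 1.10 for primary minus primordial and by 1.11 for secondary minus primordial, which both rest on PDG, and oocytes by -0.20 and 0.23. With 50 added in place of 20 the differences in GC were 0.84 and 0.85, and after quantile normalization 0.94 and 0.97, all under 2-fold.

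In the fetal ovary PAK4 had 274.5 with ovine P3, 204.6 with P2 and 227.2 with P1 RNA, and 122.4 with bovine P1 RNA. Every LCM array lay below the ovine P3 signal, between -0.76 on SECO and -2.08 on PDG. PAK4 was the only one of the 5 genes with no LCM array above it, by its brightest probe set.

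Within a compartment, the 8 probe sets gave 9 differences of at least 2-fold between single arrays. Beside each stands the share of all probe sets detected on either array that met the same call. Secondary minus primordial, NTN4 was lower in oocytes, where 11.3% of all probe sets were lower, and in GC NRP1 was lower, by a difference of -1.48, where 9.17% were. NTN4 at 1.02 and PAK4 were higher in GC over this step, where 11.0% were. Primary minus primordial, DPYSL2 Bt.5224.1.S1_at was higher in oocytes by 2.44, where 7.43% were, and in GC DPYSL2 Bt.5224.2.S1_at at 1.03 and PAK4 were higher, where 7.75% were. Secondary minus primary, DPYSL2 Bt.5224.1.S1_at was lower in oocytes at -1.18, where 11.3% were, and NTN4 was higher in GC, where 10.8% were. The calls of both weak DPYSL2 probe sets rest on 1 array each, PMO and PMG.

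NRP1 was lower on every later array of both compartments, and its oocyte difference for secondary minus primordial, -0.91, was under 2-fold. DPYSL2 Bt.20485.1.S1_at differed over the same step by -0.06 in oocytes and by -0.68 in GC. SEMA6A Bt.24434.1.A1_at differed by -0.33 in oocytes and -0.34 in GC, so that its compartments moved alike.

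The fetal ovary arrays compare labelling on the same kind of RNA and ovine with bovine RNA on bovine probes. P3 minus P1, 3 of the 8 probe sets were called lower, NRP1 at -1.17, DPYSL2 Bt.5224.1.S1_at at -3.51 and SEMA6A Bt.17078.1.S1_at at -2.27, where 25.7% of all probe sets were. DPYSL2 Bt.20485.1.S1_at was the 1 called higher, at 1.19, where 14.2% were. P2 minus P1, both weak DPYSL2 probe sets and SEMA6A Bt.17078.1.S1_at were called lower, at -1.36 for Bt.5224.2.S1_at, -2.01 for Bt.5224.1.S1_at and -2.37 for SEMA6A, where 22.9% were. The 3 probe sets detected with ovine P1 but not with ovine P3 RNA were the weak ones of DPYSL2 and SEMA6A, a loss seen for 30.7% of the 11975 probe sets detected with ovine P1.

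The amplified labellings also differed. P3 minus P2, NRP1 differed by -1.38, NTN4 by -1.14 and DPYSL2 Bt.5224.1.S1_at by -1.49, a loss of at least 2-fold that 10.2% of all probe sets had. With 50 added in place of 20 the differences were -1.16 for NRP1, -0.90 for NTN4 and -0.98 for DPYSL2 Bt.5224.1.S1_at, and after quantile normalization NTN4 had -0.93. All LCM arrays were labelled by P3, and whether P3 acts alike on oocyte and GC samples was not tested. Ovine minus bovine, with P1, the only call was SEMA6A Bt.17078.1.S1_at at 1.17, where 12.3% were higher. The other 7 probe sets ranged from -0.82 to 0.80. With 50 added in place of 20 the SEMA6A value was 0.83, under 2-fold. After quantile normalization DPYSL2 Bt.5224.1.S1_at was at -1.11, over 2-fold. Species, fetal age and the fit of ovine RNA to bovine probes cannot be told apart there. With 50 added in place of 20, the NRP1 difference for P3 minus P1 was -0.97, and after quantile normalization it was -0.89 for NRP1 and 0.75 for DPYSL2 Bt.20485.1.S1_at.

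**Figure D3:**
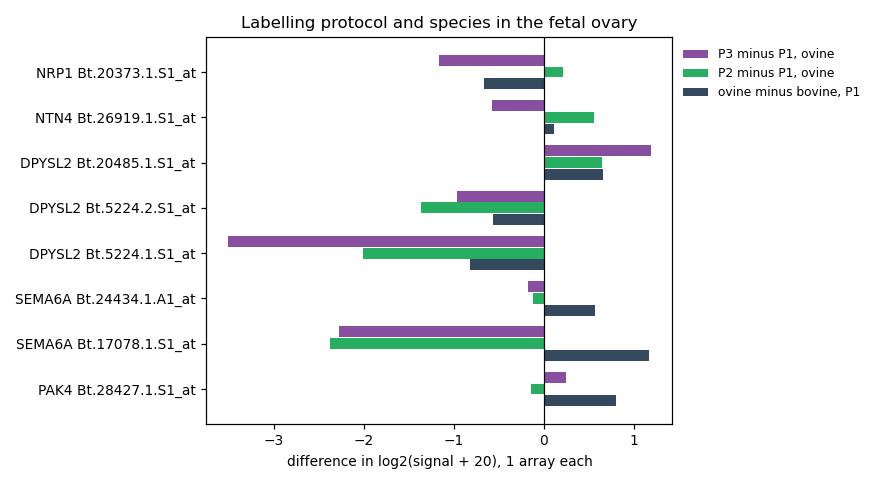
Difference in log2(signal + 20) between single fetal ovary arrays for the 8 probe sets, with P3 minus P1 and P2 minus P1 of ovine RNA and ovine minus bovine RNA labelled by P1. DPYSL2 Bt.5224.1.S1_at, at -3.51 and -2.01, and SEMA6A Bt.17078.1.S1_at, at -2.27 and -2.37, were far lower after amplification, while SEMA6A Bt.24434.1.A1_at and PAK4 moved little with the protocol.

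The other guidance genes were taken from lists of ligands, receptors and effectors. Of 140 genes without the 5, 69 are on the array and 45 were tested. None passed in either direction by limma after adjustment over all probe sets, with a smallest adjusted p of 0.406. An unadjusted p under 0.05 was reached by 5 of the 45 genes, where 681 of all 6321 genes tested reached it. These 5, named after their values were seen, are SRGAP2, ITGB1, DPYSL5, CXCL12 and ROBO1. The median difference of the 45 genes was -0.01, against 0.05 over all genes. The same sign at 3 stages was found toward oocytes in 4 of them (8.89%, against 19.8% of all genes) and toward GC in 11 (24.4%, against 16.5%).

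Among ligands 8 of 39 listed genes were tested, with a median of -0.40. The same sign at 3 stages was found toward GC in 4 and toward oocytes in none, against 16.5% and 19.8% of all genes. These 4 are EFNB3, EFNA1, CXCL12 and SLIT3, and the sign rests in part on near ties. EFNB3, an ephrin held in the membrane, had 81.47, 121.8 and 171.4 in oocytes against 147.3, 237.6 and 174 in GC, a difference of -0.53 ± 0.33 (SE). EFNA1, a lipid-anchored ephrin, had -0.41 ± 0.31 (SE). The chemokine CXCL12 and the slit SLIT3 were detected on PDG alone among the LCM arrays. The near ties are EFNB3 at the secondary stage and EFNA1 at the primary, with 121 on PMO against 123.2 on PMG. SLIT3 had 19.78 on SECO against 19.86 on SECG, both undetected. Of the netrins beside NTN4 only NTN5 is on the array, undetected on all 10 arrays, and of the semaphorins beside SEMA6A 3 of the 4 genes on the array were detected on any LCM array, SEMA3B, SEMA4F and SEMA6D. SEMA6D Bt.19862.1.A1_at, the nearest relative of SEMA6A there, had 104, 146.2 and 103.8 in oocytes against 204, 135.3 and 99.78 in GC, with no common sign.

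Among receptors 6 of 40 were tested, with a median of -0.48. ITGB1, the beta 1 integrin chain that many matrix receptors share, had 554.9, 561.7 and 724.4 in oocytes against 1281, 1095 and 1188 in GC. Its GC signals were all above its oocyte signals, as for 7.71% of all probe sets tested. Its difference was -0.94 ± 0.31 (SE) with an adjusted p of 0.411 by limma. The slit receptor ROBO1 had 10.81, 37.09 and 102.8 in oocytes against 100.8, 107.6 and 97 in GC, so that the compartments were apart at the primordial and primary stages and not at the secondary. No EPH receptor of the 3 on the array was detected on an LCM array.

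Among effectors 31 of 61 were tested, with a median of 0.09. Toward oocytes RASA1, which turns off RAS, had 301.5, 379.3 and 319.4 in oocytes against 167.5, 250 and 253.9 in GC, a difference of 0.55 ± 0.31 (SE). Toward GC lay PPP3CA, the catalytic subunit of calcineurin, at -0.64 ± 0.32 (SE), and WASL, which starts actin branching, at -0.54 ± 0.33 (SE). SRGAP2, a GTPase activating protein of the slit pathway, was the 1 gene of the 45 with a 2-fold mean and 1 sign at the 3 stages, at 1.23 ± 0.37 (SE), and was detected on 2 oocyte arrays and no GC array. All these have adjusted p-values of at least 0.406 by limma.

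Among relatives and kinases of DPYSL2 and PAK4, DPYSL3, PAK1 and GSK3B had no common sign at the 3 stages. DPYSL3 had 153.3, 218.1 and 89.09 in oocytes against 94.1, 305 and 201.5 in GC. Among the LCM arrays DPYSL5 was detected on PMO alone and DPYSL4 on PDG and SECG alone. PAK1 Bt.22106.2.S1_at, a kinase of the other PAK group, had 259.2, 342.8 and 480.4 in oocytes against 211.4, 367.2 and 340.9 in GC. GSK3B had 303.7, 210.1 and 368.1 in oocytes against 239.9, 229.7 and 152.9 in GC. These genes were picked for their known link with DPYSL2 and PAK4, after their values were seen.

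**Figure D4:**
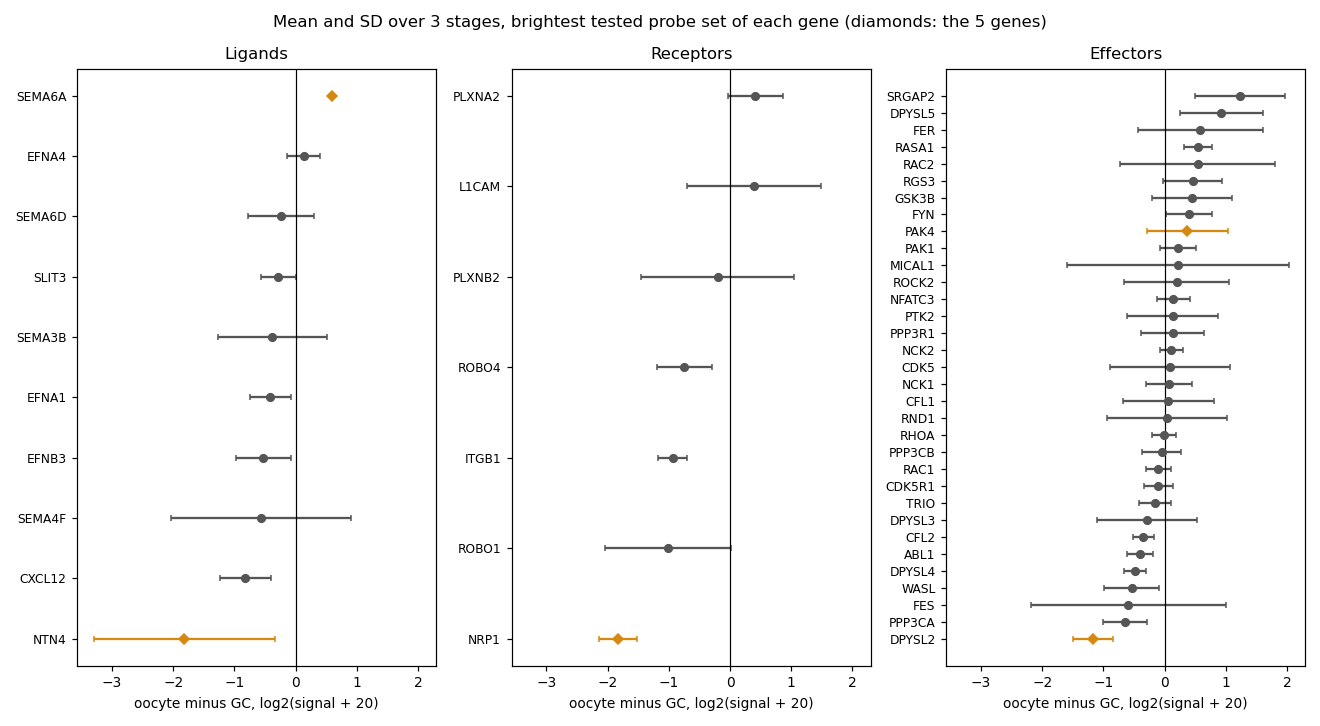
Mean oocyte minus GC difference on the log2(signal + 20) scale, with bars for the SD over 3 stages, for the 45 other guidance genes tested (circles) and the 5 genes by their brightest probe set (diamonds), by role. Among those shown, NTN4 at -1.82 is the lowest ligand, NRP1 at -1.83 the lowest receptor and DPYSL2 at -1.17 the lowest effector. The 5 genes were chosen with these signals known, so nothing is read from their place. The other DPYSL2 probe sets, not drawn here, had means of -0.07 and 0.87.

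The probe sets whose profile over the 10 arrays was most like that of each gene were sought among 5962 with a single symbol, by the Pearson correlation of log2(signal + 20). For NRP1 they were CTSK at r = 0.92 and PLS3 at 0.91. PLS3, an actin bundling protein, had 41.69, 38.07 and 43.26 in oocytes against 199.5, 162.7 and 138.2 in GC. For NTN4 they were UBA6 at 0.95 and CCDC32 at 0.89, and both had their highest signal on SECG.

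For DPYSL2 Bt.20485.1.S1_at they were FERMT2 at 0.96 and FCGRT at 0.95. FERMT2 (kindlin 2), which activates integrins, had 1366, 1112 and 1365 in oocytes against 2781, 2160 and 1961 in GC. For SEMA6A Bt.24434.1.A1_at they were UTP4 and FDX2, both at 0.91, and for PAK4 they were THOC6 at 0.97 and CXXC1 at 0.95. THOC6 and CXXC1 share with PAK4 the lowest signal on PDG and the highest with ovine P3. Each r is the highest of 5962 over 10 arrays that share labelling, species and stage, and is a description.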

How the data were processed

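The 10 arrays, 1 for each group, were analysed from the deposited series table. The deposited signal intensity values are linear MAS 5.0 signals, which the authors extracted with GCOS and scaled on each array to a trimmed mean of 100, without further normalization. Versions of these programs are not given in the sources used here. Ovine RNA binds the bovine probes unevenly, and MAS 5.0 signals are noisy when low, so 20 was added before taking log2. Gene names are those of the platform annotation, where 13292 of 24016 probe sets have 1 symbol, 86 several and 10638 none, and may be old. The 112 control probe sets were left out. Present calls were not used. The brightest probe sets of each array, as many as the share of present calls that the study lists for it, were taken as detected.

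Oocytes and GC were compared with limma 3.58.1 in R 4.3.3, with compartment and stage in the model and Benjamini-Hochberg adjustment over 11642 probe sets, two-sided. The 3 stages are the only replication and left 2 residual degrees of freedom, so the number of arrays limits the precision. The variance of each probe set was moderated toward that of all probe sets tested, with 5.43 prior degrees of freedom. The p-values and SEs of limma therefore measure the spread of a probe set between stages only in part. Each other guidance gene was represented by its brightest tested probe set. At-least folds set the lower signal to the detection limit of its array. The 5 genes, the lists and the tests were chosen with earlier results of these data known. The text names all probe sets of the 5 genes. Other guidance genes qualified with 1 sign and detection on the 3 arrays of the higher compartment. Of these the text names up to 3 of each role and direction, those with the largest difference. Guidance genes outside this rule, ROBO1, SRGAP2, CXCL12, SLIT3 and SEMA6D among them, were picked with their values known. Named too are the 2 probe sets most like each gene among those detected on at least 5 arrays. Alternatives were an added constant of 1 or 50, a floor at 20, quantile normalization, other filters, an intensity trend, the mean over probe sets, no stage term, and leaving out each stage. Sequences and genome positions were not used here. Python 3.11.15 and matplotlib 3.10.9 drew the figures.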

Additional observations from a re-analysis of the deposited data

Results flagged for a closer look

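NTN4 went opposite ways in the compartments between the primordial and the secondary stage, at -1.69 in oocytes and 1.02 in GC on the log2(signal + 20) scale. With 50 added in place of 20 the value in GC was 0.96, under 2-fold. Each value is a difference of 2 single arrays, and the difference between them was not tested.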

How the results depend on the processing

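All probe sets of the comparison of oocytes with GC stayed at 0 calls under each alternative except an intensity trend in the variance, which gave 10 calls with a smallest adjusted p of 0.0424, none of them a probe set of the 5 genes or another guidance gene. By limma, between 868 and 1963 probe sets had an unadjusted p under 0.05 in these settings. The other guidance genes had 0 calls under every alternative, with a smallest adjusted p between 0.165 and 0.618. NRP1, NTN4 and DPYSL2 Bt.20485.1.S1_at were the 3 called between the compartments, all toward GC, under every alternative that kept the 3 stages and without the primary stage. Without the secondary stage NTN4 was not called, at -0.97. Without the primordial stage DPYSL2 Bt.20485.1.S1_at was not called, at -0.98, while DPYSL2 Bt.5224.1.S1_at was called toward oocytes, at 1.67. With 50 added in place of 20, the stage differences called fell to 4, against 9 with 20. The fetal ovary differences called for P3 minus P1, P2 minus P1 and ovine minus bovine fell to 5, against 8 with 20. With 1 added, 13 stage differences and 9 of these fetal ovary differences were called. For P3 minus P2, where the alternatives were chosen after seeing the data, 1 difference was called with 50 added, against 3 with 20. No direction of a called value reversed. The mean NRP1 difference ranged from -1.47 with 50 added to -2.24 with a floor at 20. Dropping the replicate block, the stage term, gave 0 calls. Signals under the detection limit, all LCM signals of SEMA6A Bt.17078.1.S1_at among them, depend on the constant and limit what can be said of the weak probe sets.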
